A study of Homo sapiens with 24 samples.

Results

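The 60 genes described here were higher with PD-L1 siRNA than with non-targeting control (Cn) siRNA in both clear cell renal cell carcinoma (ccRCC) lines of the study, with and without interferon gamma (IFNγ). They were chosen from the values themselves. Counts per gene were expressed as CPM (counts of the gene per 1000000 counts of the library), and r was taken as the log2 ratio of the mean CPM with PD-L1 siRNA to the mean CPM with Cn siRNA, with 0.5 added to each mean. A gene was kept when r was at least 0.4 in each of the 4 settings (A498 and 786-O, without and with IFNγ) and its mean CPM was at least 1 over the 12 libraries of each line. Of the 39321 genes in the table, 12599 reached that mean CPM in both lines, and 60 of them passed the limit on r. Because the siRNA difference chose these genes, it is described here without a test. The response to IFNγ averaged over both siRNAs, which the limit on r did not use, was tested. The limit on mean CPM spans libraries with and without IFNγ, and its part in that response is given beside the counts.

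The study asked what the induced expression of PD-L1 (gene CD274), the ligand of the T cell receptor PD-1, does in ccRCC cells that are exposed to IFNγ. A498 and 786-O are established ccRCC cell lines, and each gave 3 RNA-seq libraries in each of 4 groups: Control (Cn siRNA), PDL1 (PD-L1 siRNA), Control-IFNg and PDL1-IFNg (the same siRNAs followed by IFNγ). For silencing experiments, with RNA extraction among their uses, the study's methods describe all 4 groups. For RNA-seq they name Cn siRNA, Cn siRNA with IFNγ and PD-L1 siRNA with IFNγ and do not name PD-L1 siRNA without IFNγ. The labels give that group, and r without IFNγ rests on it. The siRNAs were used at 20 nM, transfection preceded IFNγ by 24 hours, and IFNγ was given at 50 ng/mL for 24 hours. Both siRNAs were commercial pools of several duplexes, so the control libraries were also transfected, and no untransfected cells and no second, independent PD-L1 siRNA were analysed here. Single duplexes can lower transcripts other than their target, and effects of CD274 knockdown and of the siRNA pool itself cannot be told apart. In bulk RNA, a change in the share of cells that express a gene and a change per cell cannot be told apart either.

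Library totals were 19256316 to 27907526 counts for A498 and 26807875 to 30350461 for 786-O. The lines were run on different sequencers, and 1475 genes with more than 1000 counts over the A498 libraries were listed at 0 in all 786-O libraries, ACTB and VHL among them, against 35 genes the other way. Such genes could not be among the 60, and line cannot be told apart from sequencer or from how the counts were made. Lines are named by their labels, and these counts cannot show whether the names of the lines were exchanged. Replicates of 786-O spread more than those of A498. The chi-square per degree of freedom between the counts of 2 replicates was 1.63 to 7.82 in A498 and 1.98 to 24.3 in 786-O. In 786-O the first PDL1 library (24.3 and 14.3), the first Control-IFNg library (16.4 and 12.1) and the third Control library (10.1 and 11.6) stood apart from the others of their groups. Without each of them in turn 58, 61 and 55 genes met the rule, and 20, 19 and 20 of the 60 genes fell and 4 rose with IFNγ in 786-O. CD274 checked the siRNA labels. In A498 its counts were 100, 138 and 144 with Cn siRNA, 23, 24 and 26 with PD-L1 siRNA, 4546, 5134 and 3976 with Cn siRNA and IFNγ, and 617, 540 and 571 with both, and in 786-O they were 121, 117 and 122, 42, 37 and 58, 1554, 1612 and 1670 and 853, 894 and 848 in the same order. CD274 was thus below its controls in every PD-L1 siRNA library, with no overlap. The 10 markers of kidney tubule and ccRCC epithelium summed to 3977 to 6268 CPM. VIM was the largest part of that sum with Cn siRNA, at 3548 to 3665 CPM in A498 and 1601 to 1773 CPM in 786-O. PAX8 was then at 198 to 203 and 214 to 232 CPM, while 2 of the 10, PAX2 and CDH2, were at 0 in all 786-O libraries. The T cell marker genes summed to at most 0.0803 CPM and the leukocyte marker PTPRC reached at most 0.104 CPM. The 3 macrophage markers summed to 0.23 to 0.966 CPM in A498 and 0.89 to 2.2 CPM in 786-O, and the 1 B cell marker in the table reached at most 0.298 CPM. The 3 endothelial markers summed to at most 0.0405 CPM in A498, whereas in 786-O they summed to 0.112 to 0.231 CPM with Cn siRNA and 0.144 to 0.243 CPM with PD-L1 siRNA, and to 0.596 to 0.799 and 0.999 to 1.15 CPM with IFNγ. Of the 4 fibroblast markers, LUM and COL1A1 were higher with PD-L1 siRNA in A498 without overlap, LUM at 4.71 to 5.27 CPM with Cn siRNA and 9.89 to 10.4 CPM with PD-L1 siRNA and COL1A1 at 1.85 to 2.27 and 2.68 to 3.47 CPM, while COL1A2 overlapped and DCN reached at most 0.104 CPM. With IFNγ LUM was at 0.728 to 0.896 and 1.14 to 1.82 CPM and COL1A1 at 0.662 to 0.717 and 0.935 to 1.38 CPM. In 786-O, 3 of these 4 markers were at 0 in all libraries, and the sum was at most 0.0345 CPM. The part of these markers in the values below was not tested.

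Several of the 60 genes belong to the differentiated kidney tubule, the tissue from which ccRCC arises. The tubule epithelium reabsorbs water, ions, sugars and organic acids through channels, transporters and tight junction proteins. Its genes are set up in development by transcription factors such as LHX1, PAX2 and PAX8. IFNγ signals through a cell surface receptor and JAK kinases. It raises antigen presentation, CD274 and complement genes, and in epithelial cells it is known to alter tight junctions and to lower some transport functions. Other genes of the 60 act in cell death (BMF), in the response to low oxygen (CA9, ANGPTL4) and in signalling between cells (EDN2, SFRP4, NPY1R).

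By role, 16 of the 60 are epithelial, transport and metabolic genes, 9 encode secreted factors or surface receptors, 10 act in transcription or in the nucleus, 5 act in signalling and cell death, 5 are coding genes of which little is described, and 15 are long non-coding RNAs or pseudogenes. The grouping was made after the genes were known. By GENCODE biotype 45 were protein coding (75% against 78.9% of the 12599 genes), 11 were long non-coding RNAs (18.3% against 15.6%) and 4 were pseudogenes. Their expression was low for this set: the median of their mean CPM was 9.23 in A498 and 9.63 in 786-O, against 24.1 and 26.6 for the 12599 genes. Their merged exons had a median length of 3987 bases, against 4724. They lay on 20 chromosomes, with at most 6 on any of them (chromosome 1).

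The median r of the 60 genes was 0.69 in A498 without IFNγ, 0.74 in A498 with IFNγ, 0.61 in 786-O without and 0.57 in 786-O with IFNγ, where the 12599 genes had medians of 0.090, 0.11, 0.0064 and 0.0088. A shift of all genes in A498 entered r, since scaling by TMM factors in place of library totals moved these background medians to −0.011, 0.0092, −0.013 and −0.0043. With TMM scaling 44 of the 60 genes still passed the limit and none was added. All 16 that did not pass kept a positive r in every setting, among them BTG2, C4orf19, RPAP3-DT and TCN2. The 34 genes with their largest r in A498 with IFNγ outnumbered the 12 with it in A498 without IFNγ and the 7 in each of the 786-O settings. The highest r was that of ACSM2A in A498 with IFNγ (2.22). At the limit, LINC01781, ZNF589 and ENSG00000281181 lay just inside with a smallest r of 0.41, 0.40 and 0.40, and ENSG00000257225, RAPGEF3 and PRICKLE1 just outside with 0.40, 0.39 and 0.39. The plot of r by setting shows how evenly or unevenly each gene passed.

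**Figure D1:**
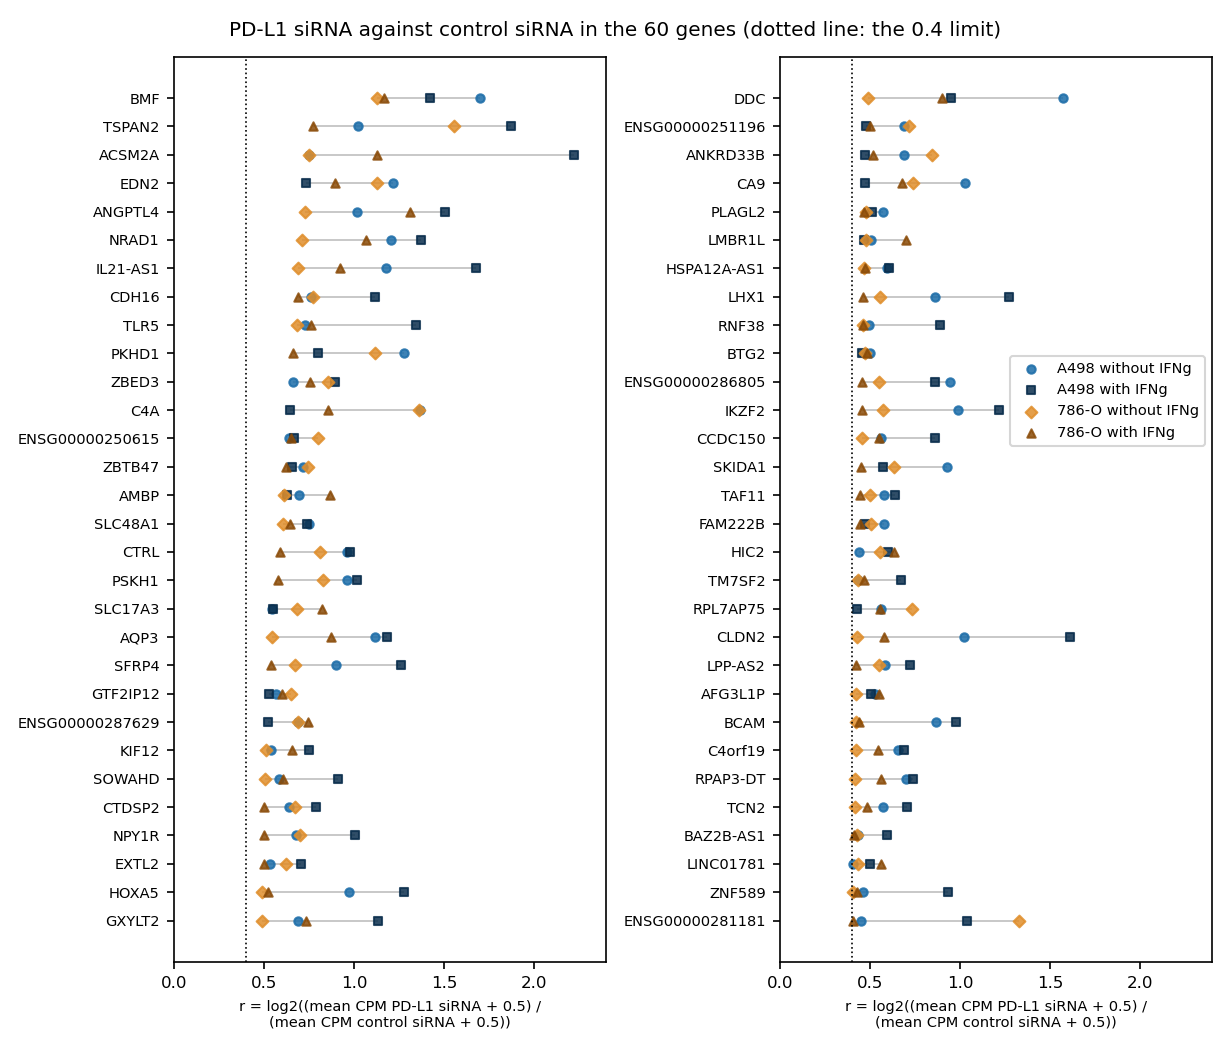
Value of r (log2 ratio of mean CPM, PD-L1 siRNA over Cn siRNA, 0.5 added to each) for each of the 60 genes in the 4 settings, 1 marker per setting and a grey line from the lowest to the highest, and the dotted line is the limit of 0.4. BMF is the gene whose lowest value lies highest (1.12), while ACSM2A, TSPAN2 and CLDN2 have the longest lines, with their highest values in A498 with IFNγ.

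All 3 PD-L1 siRNA libraries lay above all 3 Cn siRNA libraries for 59 of the 60 genes in A498 without IFNγ, 58 in A498 with IFNγ, 58 in 786-O without and 57 in 786-O with IFNγ. Among the 12599 genes this held for 42%, 39.6%, 18.9% and 20.5%. It held in all 4 settings for 54 of the 60 genes and for 5.94% of the 12599. These shares follow from how the genes were chosen. The 6 exceptions, read off after the fact, were TSPAN2, C4A, SLC17A3, TM7SF2, LINC01781 and ENSG00000281181, and in TSPAN2 a single library made the overlap.

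BMF encodes a BH3-only protein that binds anti-apoptotic BCL2 family proteins and promotes cell death. The gene (ENSG00000104081.14) lies on the minus strand at chr15:40087890-40108892 of GRCh38. BMF in A498 stood at 6.17, 6.35 and 6.57 CPM with Cn siRNA, 22.4, 20.6 and 22.3 CPM with PD-L1 siRNA, 1.38, 1.07 and 1.24 CPM with Cn siRNA and IFNγ, and 4.21, 3.89 and 4.31 CPM with PD-L1 siRNA and IFNγ. In 786-O it was at 0.926, 1.38 and 0.895 CPM with Cn siRNA, 3.1, 2.22 and 3.43 CPM with PD-L1 siRNA, 1.21, 0.904 and 1.3 CPM with Cn siRNA and IFNγ, and 2.59, 3.72 and 3.24 CPM with PD-L1 siRNA and IFNγ. No PD-L1 siRNA library overlapped its controls, and r was 1.70 and 1.42 in A498 without and with IFNγ and 1.12 and 1.17 in 786-O, the only gene of the 60 above 1 in all 4 settings. BMF-AS1 overlaps 461 of its exonic bases on the other strand and was at a mean of 0.836 CPM in A498.

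**Figure D2:**
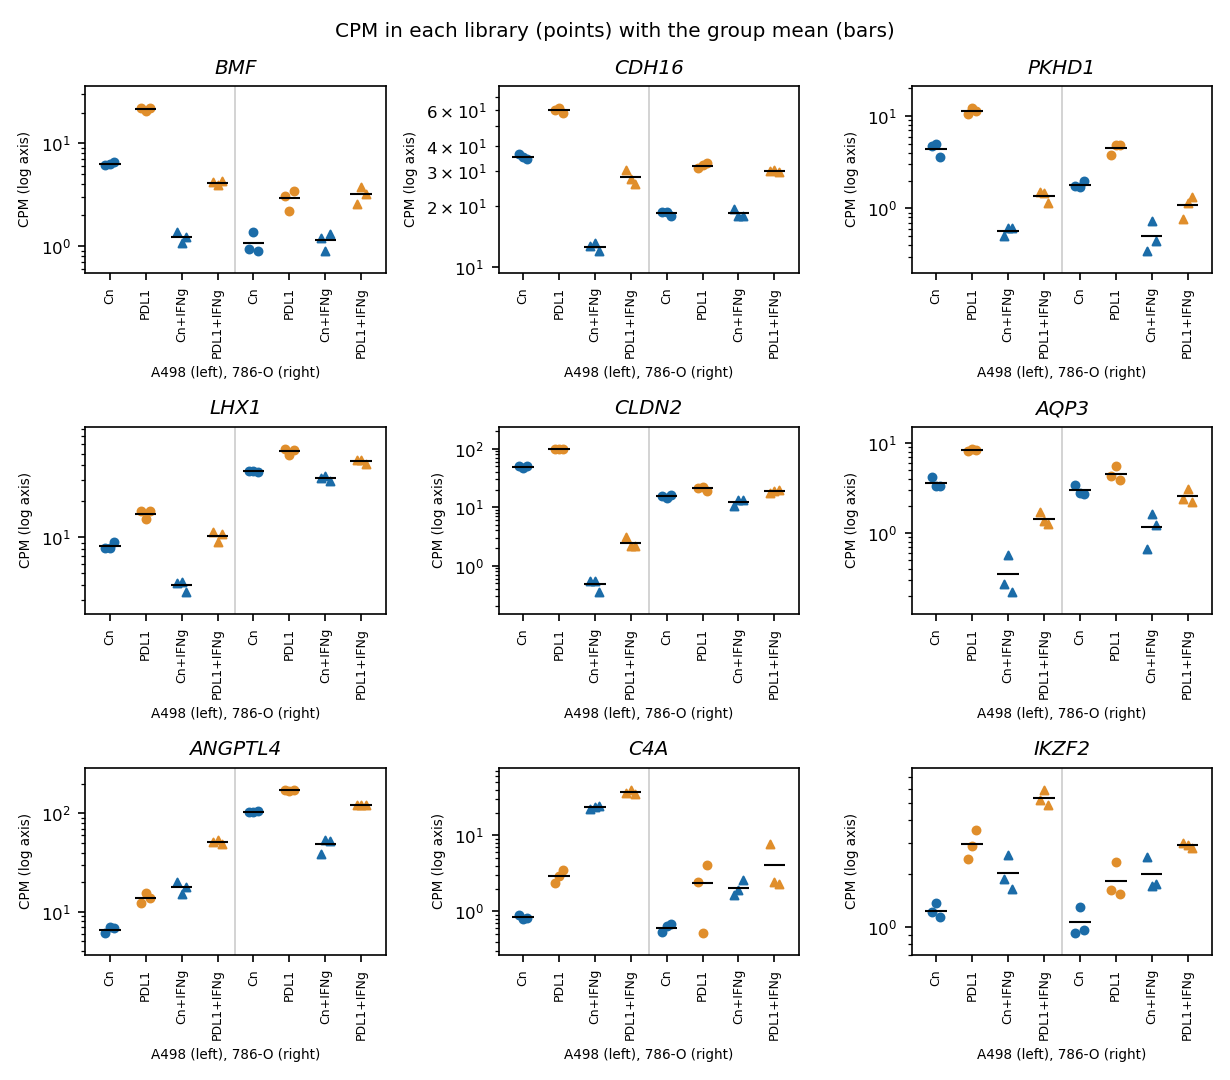
CPM (log axis) of 9 of the 60 genes in each of the 24 libraries, with blue for Cn siRNA, orange for PD-L1 siRNA, circles without and triangles with IFNγ, and a bar at the mean of each group of 3. A498 groups stand to the left of the grey line and 786-O groups to the right. Orange points lie above the blue points of the same setting, except in C4A in 786-O, while the step from circles to triangles differs between genes and lines, steeply downward for CLDN2 in A498 and upward for C4A.

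CDH16 encodes kidney-specific cadherin, an adhesion protein of the tubule's basolateral membrane. It was at 36.1, 35.3 and 34.3 CPM with Cn siRNA, 60.3, 61.9 and 58 CPM with PD-L1 siRNA, 12.6, 13 and 12 CPM with Cn siRNA and IFNγ, and 30.4, 27.4 and 25.6 CPM with PD-L1 siRNA and IFNγ in A498. In 786-O CDH16 was at 18.7, 18.7 and 17.9 CPM with Cn siRNA, 30.8, 31.9 and 32.9 CPM with PD-L1 siRNA, 19.4, 17.9 and 17.9 CPM with Cn siRNA and IFNγ, and 29.9, 30.3 and 29.6 CPM with PD-L1 siRNA and IFNγ. The ranges of the siRNA groups did not overlap in any setting, and the 786-O values hardly differed between cells without and with IFNγ, whereas the A498 values were lower with IFNγ under either siRNA. Its r was 0.76 and 1.12 in A498 without and with IFNγ and 0.77 and 0.69 in 786-O.

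PKHD1 encodes fibrocystin, a protein of the primary cilium that is mutated in recessive polycystic kidney disease. Its levels in A498 were 4.71, 4.94 and 3.61 CPM with Cn siRNA, 10.4, 12.4 and 11.4 CPM with PD-L1 siRNA, 0.498, 0.609 and 0.618 CPM with Cn siRNA and IFNγ, and 1.5, 1.45 and 1.15 CPM with PD-L1 siRNA and IFNγ. Those in 786-O were 1.75, 1.72 and 1.97 CPM with Cn siRNA, 3.75, 4.92 and 4.86 CPM with PD-L1 siRNA, 0.345, 0.73 and 0.447 CPM with Cn siRNA and IFNγ, and 0.777, 1.15 and 1.34 CPM with PD-L1 siRNA and IFNγ. Here both lines showed the same order of groups, with PD-L1 siRNA without IFNγ highest and Cn siRNA with IFNγ lowest.

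LHX1 encodes a LIM homeobox factor required to form the nephric duct and the early nephron. Its values in A498 were 8.14, 8.11 and 9.12 CPM with Cn siRNA, 16.5, 14.2 and 16.6 CPM with PD-L1 siRNA, 4.18, 4.19 and 3.49 CPM with Cn siRNA and IFNγ, and 11, 9.04 and 10.7 CPM with PD-L1 siRNA and IFNγ. In 786-O, where it was more abundant, they were 36, 35.8 and 35.2 CPM with Cn siRNA, 55.1, 48.8 and 53.8 CPM with PD-L1 siRNA, 31.1, 32.5 and 29.7 CPM with Cn siRNA and IFNγ, and 44.2, 44.2 and 40.7 CPM with PD-L1 siRNA and IFNγ. The siRNA groups did not overlap in either line. LHX1 and CDH16 were the only genes of the 60 in a list of 18 kidney lineage genes. In that list 3 of the 13 genes tested in A498 rose and none fell with PD-L1 siRNA without IFNγ, and 5 rose and 1 fell with IFNγ. In 786-O, 3 and 2 of 10 rose and none fell by edgeR. At an unadjusted p under 0.05 with no fold limit, 7 and 5 were higher and 1 and 2 lower in A498 without and with IFNγ. In 786-O, 4 and 3 were higher and 2 and 1 lower. These counts include both genes, so they are not independent of the choice, and over all genes tested 2.87%, 4.36%, 1.19% and 1.29% rose and 5.6%, 5.75%, 1.63% and 1.74% fell in the 4 settings. PAX8, another gene of the list, had r of −0.32 and −0.67 in A498 and 0.036 and −0.030 in 786-O, so the list did not move as 1 block.

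CLDN2 encodes claudin-2, which forms cation and water pores in the tight junctions of the proximal tubule. Its A498 levels were 51.6, 46.1 and 49.8 CPM with Cn siRNA, 100.4, 101 and 99.9 CPM with PD-L1 siRNA, 0.537, 0.537 and 0.353 CPM with Cn siRNA and IFNγ, and 3.09, 2.18 and 2.16 CPM with PD-L1 siRNA and IFNγ. In 786-O it was at 15.5, 14.6 and 16.3 CPM with Cn siRNA, 21.2, 22.5 and 19 CPM with PD-L1 siRNA, 10.6, 13.2 and 13.4 CPM with Cn siRNA and IFNγ, and 17.2, 19.1 and 19.9 CPM with PD-L1 siRNA and IFNγ. Its levels in A498 thus spanned more than 2 orders of magnitude between groups, and in 786-O less than 1. AQP3 encodes a basolateral water and glycerol channel of the collecting duct. Libraries of A498 held AQP3 at 4.15, 3.33 and 3.36 CPM with Cn siRNA, 8.23, 8.67 and 8.33 CPM with PD-L1 siRNA, 0.268, 0.573 and 0.221 CPM with Cn siRNA and IFNγ, and 1.72, 1.35 and 1.25 CPM with PD-L1 siRNA and IFNγ. In 786-O AQP3 was at 3.44, 2.8 and 2.72 CPM with Cn siRNA, 4.33, 5.48 and 3.92 CPM with PD-L1 siRNA, 0.656, 1.63 and 1.23 CPM with Cn siRNA and IFNγ, and 2.41, 3.06 and 2.2 CPM with PD-L1 siRNA and IFNγ. PD-L1 siRNA libraries lay above their controls for both genes in every setting.

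ACSM2A encodes a mitochondrial medium-chain acyl-CoA ligase of kidney and liver. In A498 its values were 28.9, 27.8 and 27.8 CPM with Cn siRNA, 47.9, 43.9 and 51.4 CPM with PD-L1 siRNA, 0.843, 1.5 and 0.883 CPM with Cn siRNA and IFNγ, and 6.79, 6.44 and 7.38 CPM with PD-L1 siRNA and IFNγ. In 786-O they were 2.45, 1.94 and 3.29 CPM with Cn siRNA, 4.4, 4.96 and 4.58 CPM with PD-L1 siRNA, 0.656, 0.904 and 0.819 CPM with Cn siRNA and IFNγ, and 1.96, 2.57 and 2.44 CPM with PD-L1 siRNA and IFNγ. Reads of its close copy ACSM2B may be divided between the genes, and ACSM2B, which missed the CPM limit in 786-O with a mean of 0.448, had r of 0.86 and 1.40 in A498 and 0.60 and 0.61 in 786-O. SLC17A3 encodes an organic anion and urate transporter of the proximal tubule. Its values in A498 were 14.3, 13.3 and 12.7 CPM with Cn siRNA, 19, 21 and 19.4 CPM with PD-L1 siRNA, 1.57, 1.94 and 1.94 CPM with Cn siRNA and IFNγ, and 3.09, 1.92 and 3.64 CPM with PD-L1 siRNA and IFNγ, where 1 PD-L1 siRNA library with IFNγ lay within the range of its controls. In 786-O SLC17A3 was at 2.28, 2.98 and 2.22 CPM with Cn siRNA, 4.47, 4.54 and 3.88 CPM with PD-L1 siRNA, 0.829, 0.938 and 0.782 CPM with Cn siRNA and IFNγ, and 1.7, 1.61 and 2.34 CPM with PD-L1 siRNA and IFNγ, without overlap. AMBP, which encodes alpha-1-microglobulin and bikunin, was at 3.43, 4.02 and 4.46 CPM with Cn siRNA, 6.3, 6.9 and 6.97 CPM with PD-L1 siRNA, 1.84, 1.65 and 1.81 CPM with Cn siRNA and IFNγ, and 2.79, 3.58 and 2.63 CPM with PD-L1 siRNA and IFNγ in A498 and had r of 0.61 and 0.87 in 786-O. KIF12, a kinesin gene of kidney epithelium, ends 7797 bases before the start of AMBP on the same strand and is also one of the 60, with r of 0.53 and 0.75 in A498 without and with IFNγ and 0.51 and 0.65 in 786-O. SLC48A1, a haem transporter gene, had a like r in all settings, 0.75 and 0.74 in A498 without and with IFNγ and 0.60 and 0.64 in 786-O. Further genes of this group, named after their values were seen, were DDC (aromatic amino acid decarboxylase), BCAM (a laminin receptor), TCN2 (the vitamin B12 carrier transcobalamin), TM7SF2 (a sterol reductase), and the glycosyltransferase genes EXTL2 and GXYLT2. The median r of the 16 epithelial, transport and metabolic genes was 0.75 and 0.77 in A498 and 0.57 and 0.67 in 786-O.

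CA9 and ANGPTL4 are targets of hypoxia-inducible factors, which are stabilised in ccRCC that has lost VHL. CA9 encodes a carbonic anhydrase of the cell surface and ANGPTL4 a secreted inhibitor of lipoprotein lipase. Of the 1598 exonic bases of CA9, 571 overlap ARHGEF39 on the other strand. ARHGEF39 was at a mean of 17.65 CPM in A498 and 69.04 CPM in 786-O, and how many of its reads were counted for CA9 was not tested. CA9 was near 1 CPM in A498, with 0.766, 0.763 and 0.689 CPM with Cn siRNA, 2.43, 2.09 and 1.56 CPM with PD-L1 siRNA, 0.767, 0.896 and 0.662 CPM with Cn siRNA and IFNγ, and 1.16, 1.25 and 1.39 CPM with PD-L1 siRNA and IFNγ. It was higher in 786-O, with 17.5, 18.2 and 19 CPM with Cn siRNA, 30.1, 31.8 and 30.3 CPM with PD-L1 siRNA, 8.67, 7.23 and 7.67 CPM with Cn siRNA and IFNγ, and 11.7, 13.7 and 13.1 CPM with PD-L1 siRNA and IFNγ. ANGPTL4 also differed between the lines. In A498 it was at 6.08, 6.95 and 6.77 CPM with Cn siRNA, 12.4, 15.4 and 13.7 CPM with PD-L1 siRNA, 20.0, 15.3 and 17.7 CPM with Cn siRNA and IFNγ, and 51, 53.6 and 48.7 CPM with PD-L1 siRNA and IFNγ, and in 786-O at 103, 104 and 106 CPM with Cn siRNA, 174, 168 and 175 CPM with PD-L1 siRNA, 38.5, 54.1 and 52.9 CPM with Cn siRNA and IFNγ, and 121, 120.4 and 122 CPM with PD-L1 siRNA and IFNγ. For both genes the siRNA groups did not overlap. Under the same siRNA, ANGPTL4 levels with IFNγ were above those without it in A498 and below them in 786-O. Of the 24 HIF target genes listed, 2 rose and 6 fell in A498 with PD-L1 siRNA without IFNγ, 1 rose and none fell with IFNγ, and in 786-O 2 of 19 rose and none fell in either setting by edgeR. At an unadjusted p under 0.05 with no fold limit, 17 and 11 were lower and 3 and 5 higher in A498 without and with IFNγ. In 786-O, 6 and 1 were lower and 4 and 9 higher. CA9 and ANGPTL4 are counted in the list, so its counts are not independent of the choice.

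EDN2 encodes endothelin-2, a vasoconstrictor peptide. It was at 2.34, 3.21 and 2.31 CPM with Cn siRNA, 7.61, 6.31 and 6.31 CPM with PD-L1 siRNA, 4.25, 5.3 and 4.5 CPM with Cn siRNA and IFNγ, and 8.6, 7.43 and 8.29 CPM with PD-L1 siRNA and IFNγ in A498. In 786-O EDN2 was at 4.43, 4.55 and 4.12 CPM with Cn siRNA, 11.2, 9.19 and 10.0 CPM with PD-L1 siRNA, 3.04, 3.34 and 2.87 CPM with Cn siRNA and IFNγ, and 6.7, 6.72 and 5.03 CPM with PD-L1 siRNA and IFNγ. TLR5 encodes the receptor for bacterial flagellin, and it was at 4.51, 4.5 and 4.62 CPM with Cn siRNA, 7.42, 8.45 and 7.71 CPM with PD-L1 siRNA, 1.15, 1.15 and 1.15 CPM with Cn siRNA and IFNγ, and 3.52, 3.74 and 3.78 CPM with PD-L1 siRNA and IFNγ in A498. Both genes separated the siRNA groups in A498, and their r in 786-O was 1.13 and 0.89 for EDN2 and 0.68 and 0.76 for TLR5. TSPAN2 encodes a tetraspanin of the cell surface. Its level in A498 was 27.2, 27.3 and 25.2 CPM with Cn siRNA, 52.2, 56.9 and 53.8 CPM with PD-L1 siRNA, 11.1, 11.1 and 11.8 CPM with Cn siRNA and IFNγ, and 42, 44.8 and 41.9 CPM with PD-L1 siRNA and IFNγ. In 786-O TSPAN2 was at 7.37, 7.27 and 6.95 CPM with Cn siRNA, 19.9, 24.3 and 22 CPM with PD-L1 siRNA, 18.3, 7.51 and 7.15 CPM with Cn siRNA and IFNγ, and 20.4, 17.5 and 19.5 CPM with PD-L1 siRNA and IFNγ. The first Cn siRNA library with IFNγ in 786-O lay apart from its replicates and inside the range of the PD-L1 siRNA group.

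C4A encodes complement component C4, which IFNγ is known to induce. Levels in A498 were 0.887, 0.803 and 0.811 CPM with Cn siRNA, 2.36, 2.91 and 3.54 CPM with PD-L1 siRNA, 22.6, 23.9 and 24.4 CPM with Cn siRNA and IFNγ, and 36.1, 40.2 and 35.2 CPM with PD-L1 siRNA and IFNγ. In 786-O C4A was at 0.529, 0.634 and 0.68 CPM with Cn siRNA, 2.45, 0.52 and 4.09 CPM with PD-L1 siRNA, 1.62, 1.91 and 2.61 CPM with Cn siRNA and IFNγ, and 7.62, 2.44 and 2.27 CPM with PD-L1 siRNA and IFNγ. The A498 groups did not overlap, whereas in 786-O the second PD-L1 siRNA library without IFNγ lay below all its controls and 1 of the 3 with IFNγ was more than 3 times as high as the other two. C4A and C4B are near-identical neighbours between which reads may be divided. C4B had r of 1.07 and 0.69 in A498 and 0.35 and 0.28 in 786-O, where its mean CPM was 51.5 against 2.28 for C4A, so the C4A values of 786-O are uncertain.

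Among the nuclear regulators, BTG2 encodes an antiproliferative protein that p53 induces. It was at 27.8, 27.8 and 27 CPM with Cn siRNA, 39.4, 39.1 and 38.7 CPM with PD-L1 siRNA, 16.2, 18.8 and 17.7 CPM with Cn siRNA and IFNγ, and 24.8, 23.5 and 24.5 CPM with PD-L1 siRNA and IFNγ in A498 and its r was close to the limit in all settings, 0.50 and 0.46 in A498 without and with IFNγ and 0.47 and 0.48 in 786-O. Of the 28 p53 target genes listed none rose and 5 fell with PD-L1 siRNA in A498 in either setting, and in 786-O none of 24 rose while 1 and 2 fell, by edgeR. BTG2 is counted in the list, so its counts are not independent of the choice. At an unadjusted p under 0.05 with no fold limit, 8 and 7 were higher and 14 and 9 lower in A498 without and with IFNγ. In 786-O, 5 and 11 were higher and 6 and 7 lower. IKZF2 encodes Helios, a zinc finger factor of the Ikaros family. A498 libraries held it at 1.21, 1.37 and 1.13 CPM with Cn siRNA, 2.43, 2.86 and 3.54 CPM with PD-L1 siRNA, 1.88, 2.54 and 1.63 CPM with Cn siRNA and IFNγ, and 5.2, 5.97 and 4.89 CPM with PD-L1 siRNA and IFNγ. In 786-O IKZF2 was at 0.926, 1.31 and 0.967 CPM with Cn siRNA, 1.62, 2.32 and 1.54 CPM with PD-L1 siRNA, 2.49, 1.7 and 1.75 CPM with Cn siRNA and IFNγ, and 3.0, 2.9 and 2.79 CPM with PD-L1 siRNA and IFNγ. The siRNA groups of IKZF2 did not overlap in any setting. HOXA5, ZBTB47, PLAGL2, HIC2, ZNF589, SKIDA1 and TAF11 made up the rest of the group with LHX1, and the medians of r over the 10 genes were 0.65 and 0.65 in A498 and 0.53 and 0.46 in 786-O.

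The non-coding genes held 2 of the 7 highest ranks by smallest r. NRAD1 is a long non-coding RNA on chromosome 13, at 2.9, 3.25 and 2.92 CPM with Cn siRNA, 7.07, 7.54 and 8.25 CPM with PD-L1 siRNA, 0.0383, 0.0358 and 0.0883 CPM with Cn siRNA and IFNγ, and 1.16, 0.779 and 0.862 CPM with PD-L1 siRNA and IFNγ in A498. In 786-O NRAD1 was at 5.59, 5.22 and 5.58 CPM with Cn siRNA, 9.2, 9.71 and 8.89 CPM with PD-L1 siRNA, 0.864, 1.39 and 1.49 CPM with Cn siRNA and IFNγ, and 3.18, 2.9 and 3.37 CPM with PD-L1 siRNA and IFNγ. Its A498 level with Cn siRNA and IFNγ rested on few counts, and the siRNA groups did not overlap. IL21-AS1, whose exons overlap 199 bases of IL21 on the other strand, had r of 1.18 and 1.68 in A498 without and with IFNγ and 0.69 and 0.92 in 786-O.

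Of the 60 genes, 8 formed 4 pairs whose exons overlap on opposite strands, so they are 4 loci rather than 8 independent genes. PSKH1, a serine kinase gene, and CTRL, a chymotrypsin-like protease gene, overlap by 359 exonic bases near chr16:67927640-67929676, and their r was 0.96 and 1.02 in A498 without and with IFNγ and 0.83 and 0.58 in 786-O for PSKH1 and 0.96 and 0.98 in A498 without and with IFNγ and 0.81 and 0.59 in 786-O for CTRL. Counts of CTRL were 11.5% to 13.7% of those of PSKH1 over the 12 A498 libraries and 11.4% to 13.9% over the 12 of 786-O. ENSG00000251196 lies with all 800 of its exonic bases inside ANKRD33B exons, and its counts were 10.3% to 12.6% and 10.8% to 13.9% of those of ANKRD33B. ENSG00000250615 lies with all 385 of its exonic bases inside ZBED3 exons, and was at 17.2% to 24.2% and 10.2% to 24.8% of ZBED3, the last over as few as 6 counts. ENSG00000287629, which shares 1708 bases with ZBTB47, was at 13.7% to 20.7% and 17.0% to 22.3%. Within each pair the lower gene followed the higher one across all libraries, and the counting used strand, as the study's methods state. Some of the 60 also overlap genes outside the 60 on the other strand, such as HSPA12A-AS1, with 546 of its 883 exonic bases over HSPA12A. HSPA12A was at a mean of 88.27 CPM in A498 and 0 in 786-O. How many reads of 1 strand were counted for the gene on the other was not tested.

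**Figure D3:**
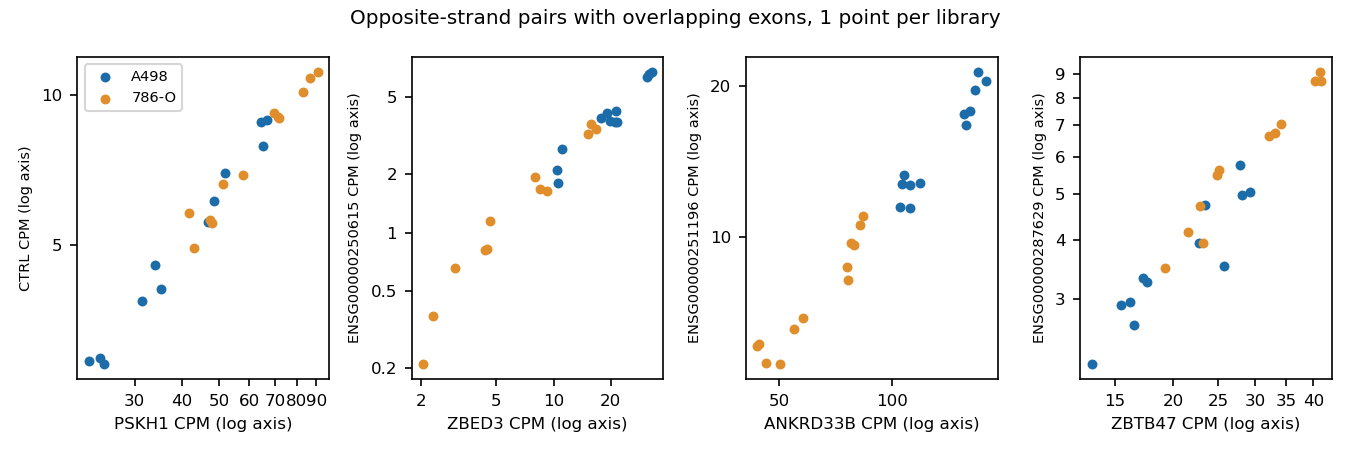
CPM of both genes of each of the 4 opposite-strand pairs (log axes), 1 point per library, blue for A498 and orange for 786-O. The points of each pair lie along 1 line through both lines and all groups, with the second gene at about 10% to 25% of the first.

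The averaged IFNγ effect was the mean log2 level of the 6 libraries with IFNγ less that of the 6 without, with both siRNAs weighted equally, tested with the quasi-likelihood test of edgeR and adjusted by Benjamini-Hochberg over all genes of the line. A gene was called when its adjusted p was under 0.05 and its log2 fold change passed 0.5 either way. In A498, 32 of the 60 genes fell and 7 rose, where 19.2% and 18.9% of all 20916 genes tested and 17.2% and 19.3% of the 12599 genes fell and rose. In 786-O, 20 of the 60 fell and 4 rose, where 9.17% and 12.2% of 21209 genes tested and 6.64% and 10.7% of the 12599 did. The median log2 fold change of the 60 genes was −0.64 in A498 and −0.22 in 786-O, against −0.0021 and 0.018 for the 12599. With no limit on the fold, 37 of the 60 genes were lower and 10 higher in A498, where 35.1% and 33.8% of all genes tested were, and 31 were lower and 10 higher in 786-O, against 23% and 27.1%.

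The limit on mean CPM let in some genes through their libraries without IFNγ alone. In A498, 8 of the 60 genes had a mean of at least 1 CPM without IFNγ and under 1 CPM with it (AQP3, DDC, NRAD1, PKHD1, RPL7AP75, SKIDA1, LINC01781 and ENSG00000286805), and in 786-O 3 did (PKHD1, LINC01781 and ENSG00000250615), so these had to be lower with IFNγ and support nothing. Among the 52 genes at 1 CPM or more on both sides in A498, 24 fell and 7 rose, where 16.2% and 18.6% of 12180 such genes did. Among 57 in 786-O, 17 fell and 4 rose, where 6.15% and 10.2% of 12393 did. The labels do not say that replicates were separate cultures, so the p-values measure the spread between these libraries, which may be technical.

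**Figure D4:**
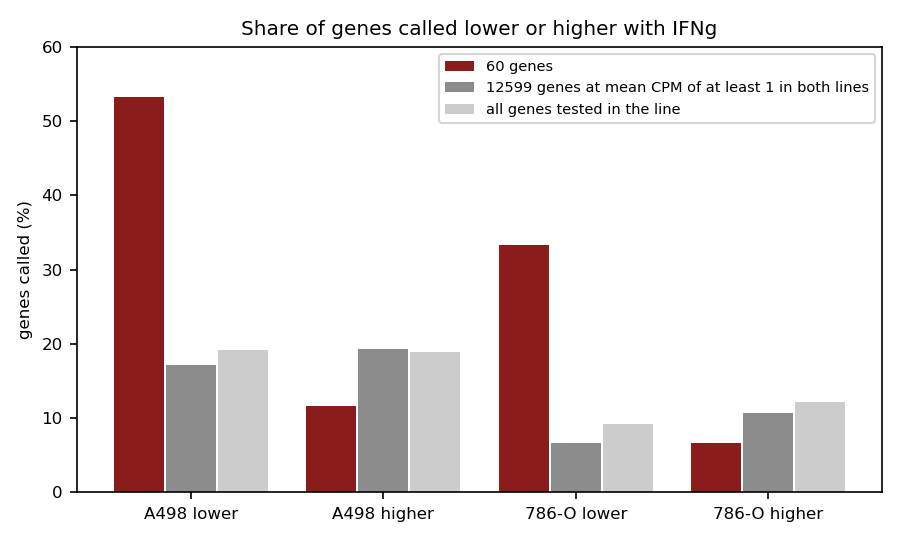
Percent of genes called lower or higher with IFNγ in each line (averaged over both siRNAs), for the 60 genes, the 12599 genes at a mean CPM of at least 1 in both lines, and all genes tested in the line. The 60 genes have 53.3% called lower in A498 and 33.3% in 786-O, the tallest bar of each line, and fewer called higher than the other sets. These bars include 8 genes in A498 and 3 in 786-O whose fall was fixed by the limit on mean CPM. Among genes at 1 CPM or more with and without IFNγ, 46.2% and 29.8% were called lower, against 16.2% and 6.15%.

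Both lines called 17 of the 60 genes lower (28.3%), against 3.37% of the 12599 genes. They were ACSM2A, NRAD1, PKHD1, ZBED3, ENSG00000250615, SLC17A3, AQP3, SFRP4, EXTL2, GXYLT2, HSPA12A-AS1, BTG2, ENSG00000286805, SKIDA1, LPP-AS2, LINC01781 and ZNF589. Of these, NRAD1, PKHD1, AQP3, SKIDA1, LINC01781, ENSG00000286805 and ENSG00000250615 had to be lower in at least 1 line by the limit on mean CPM. They support nothing here, and the share of 28.3% includes them. IKZF2 and C4orf19 were higher in both, against 7.06% of the 12599, ANGPTL4 alone was higher in A498 and lower in 786-O (0.452% of the 12599), and none went the opposite way (0.54%). Another 17 genes were called in neither line (28.3% against 57.6%). Complete separation was near that of genes at large. The 6 libraries with IFNγ all lay below the 6 without for 22 of the 60 genes in A498 (36.7%) and 14 in 786-O (23.3%), where 30.9% and 25% of the 12599 genes separated in this way. Each group of 6 holds both siRNAs, which by choice differ in these genes.

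**Figure D5:**
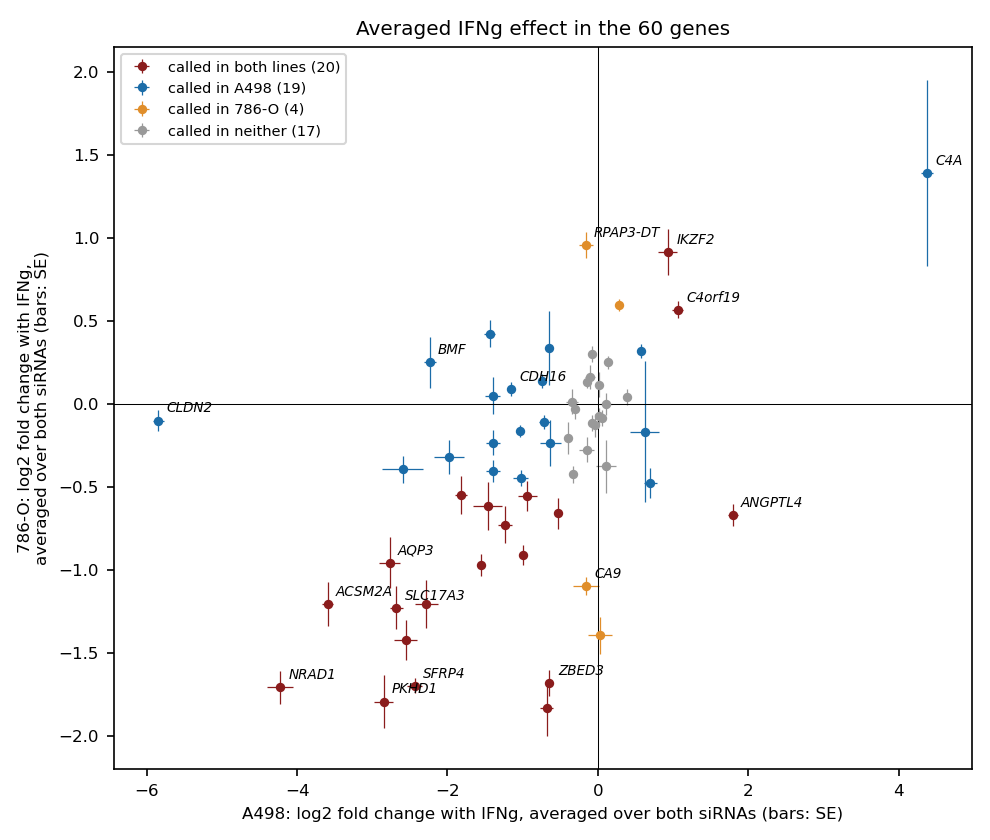
Averaged IFNγ effect of the 60 genes in A498 (x axis) and 786-O (y axis), as log2 fold changes with bars of 1 SE, coloured by the lines in which a gene was called. The axes have different scales. Most points lie left of 0, 17 lie in the lower left as called in both lines, and CLDN2, BMF and CDH16 are far below 0 in A498 and near 0 in 786-O.

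The averaged effect itself differed between the lines for 44 of the 60 genes (edgeR adjusted p under 0.05), against 56.4% of the 17999 genes tested in both. It was higher in 786-O for 32 of the 44 and lower for 12, where 26.5% and 30% of the 17999 were. The 32 include all 8 genes whose fall in A498 was fixed by the limit on mean CPM. The 12 include ENSG00000250615, whose fall in 786-O was so fixed. These counts are therefore not independent of the choice.

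Epithelial, transport and metabolic genes held the largest share of the genes that fell, with 12 of 16 lower and none higher in A498 and 7 lower and 1 higher in 786-O. The limit on mean CPM fixed the fall of AQP3, DDC and PKHD1 in A498 and of PKHD1 in 786-O. For this and the groups below, 17.2% of the 12599 genes fell and 19.3% rose in A498, and 6.64% and 10.7% in 786-O. CLDN2 fell most in A498, with a log2 fold change of −5.85 ± 0.071 (SE, edgeR adjusted p = 2.65e-38) and a lowest, median and highest value of 46.1, 75.7 and 101 CPM in the 6 libraries without IFNγ and 0.353, 1.35 and 3.09 CPM in the 6 with it. In 786-O its libraries overlapped, with a log2 fold change of −0.10 ± 0.065 (SE, edgeR adjusted p = 0.211). ACSM2A gave −3.60 ± 0.071 (SE, edgeR adjusted p = 1.14e-31) in A498 and −1.21 ± 0.13 (SE, edgeR adjusted p = 2.57e-08) in 786-O. AQP3 gave −2.77 ± 0.14 (SE, edgeR adjusted p = 1.69e-19) and −0.96 ± 0.15 (SE, edgeR adjusted p = 2.34e-05), and SLC17A3 −2.68 ± 0.087 (SE, edgeR adjusted p = 4.95e-25) and −1.23 ± 0.13 (SE, edgeR adjusted p = 9.67e-09). These 3 transport and metabolic genes thus fell in both lines, more in A498, where the direction of AQP3 was fixed by the limit on mean CPM. PKHD1 fell in both as well, with −2.85 ± 0.12 (SE, edgeR adjusted p = 2.25e-21) and −1.80 ± 0.16 (SE, edgeR adjusted p = 5.24e-10), and the 6 libraries with IFNγ lay below the 6 without in either line. Its direction was fixed by that limit in both lines, so these PKHD1 values are a description. CDH16 and AMBP fell in A498, with −1.15 ± 0.044 (SE, edgeR adjusted p = 5.81e-23) and −1.03 ± 0.10 (SE, edgeR adjusted p = 2.27e-11). In 786-O they were not called, with 0.090 ± 0.042 (SE, edgeR adjusted p = 0.0788) and −0.45 ± 0.049 (SE, edgeR adjusted p = 1.68e-08). CA9 was called in 786-O and not in A498, with −0.16 ± 0.17 (SE, edgeR adjusted p = 0.413) in A498 and −1.10 ± 0.055 (SE, edgeR adjusted p = 4.94e-15) in 786-O. TCN2 was the 1 gene of the group that rose, with 0.60 ± 0.037 (SE, edgeR adjusted p = 4.33e-13) in 786-O.

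Secreted factors and receptors were mixed, with 4 of 9 lower and 3 higher in A498 and 2 lower and none higher in 786-O. C4A rose most, with a log2 fold change of 4.38 ± 0.078 (SE, edgeR adjusted p = 3.86e-33) in A498 and a lowest, median and highest value of 0.803, 1.62 and 3.54 CPM in the 6 libraries without IFNγ and 22.6, 29.8 and 40.2 CPM in the 6 with it. In 786-O its log2 fold change was 1.39 ± 0.56 (SE, edgeR adjusted p = 0.0717) and did not pass, although it passed by DESeq2 and without the third PD-L1 siRNA library without IFNγ, where it was 1.72 (edgeR adjusted p = 0.0362). ANGPTL4 gave 1.79 ± 0.063 (SE, edgeR adjusted p = 2.75e-22) in A498 and −0.67 ± 0.068 (SE, edgeR adjusted p = 2.31e-06) in 786-O, opposite calls. EDN2 rose in A498, with 0.70 ± 0.089 (SE, edgeR adjusted p = 1.29e-08), and gave −0.48 ± 0.089 (SE, edgeR adjusted p = 6.33e-05) in 786-O, under the limit on fold change. TLR5 fell in A498, with −1.39 ± 0.092 (SE, edgeR adjusted p = 8.60e-16). SFRP4, a secreted Wnt antagonist, NPY1R, a neuropeptide Y receptor, and TSPAN2 were the others that fell in A498, and SFRP4 fell in 786-O too (−1.70, edgeR adjusted p = 4.01e-21).

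Of the 5 genes of signalling and cell death, BMF fell in A498, with a log2 fold change of −2.24 ± 0.080 (SE, edgeR adjusted p = 1.10e-23) and a lowest, median and highest value of 6.17, 13.6 and 22.4 CPM in the 6 libraries without IFNγ and 1.07, 2.64 and 4.31 CPM in the 6 with it. In 786-O BMF was low and its groups overlapped, with 0.25 ± 0.15 (SE, edgeR adjusted p = 0.187). ZBED3, which encodes an axin-interacting protein of Wnt signalling, fell in both lines, with −0.64 ± 0.050 (SE, edgeR adjusted p = 7.65e-14) and −1.68 ± 0.078 (SE, edgeR adjusted p = 9.57e-16). Its opposite-strand partner ENSG00000250615 gave nearly the same, −0.68 ± 0.091 (SE, edgeR adjusted p = 3.32e-08) and −1.84 ± 0.17 (SE, edgeR adjusted p = 7.57e-10), and adds no second locus. PSKH1 and CTRL stayed under the fold limit in both lines. Among nuclear regulators 5 of 10 fell and 1 rose in A498, and 3 fell and 1 rose in 786-O. The limit on mean CPM fixed the fall of SKIDA1 in A498. LHX1 fell in A498, with −0.71 ± 0.070 (SE, edgeR adjusted p = 2.67e-11), and gave −0.11 ± 0.042 (SE, edgeR adjusted p = 0.0358) in 786-O. BTG2 fell in both lines, with −0.53 ± 0.042 (SE, edgeR adjusted p = 1.06e-13) and −0.66 ± 0.092 (SE, edgeR adjusted p = 1.74e-04), but missed the fold limit in A498 without the first Cn siRNA library with IFNγ (−0.497). IKZF2 rose in both, with 0.93 ± 0.12 (SE, edgeR adjusted p = 3.53e-08) and 0.91 ± 0.14 (SE, edgeR adjusted p = 4.12e-06).

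Of the 15 non-coding genes, 8 fell and 1 rose in A498, and 6 fell and 1 rose in 786-O, where 17.2% and 19.3%, and 6.64% and 10.7%, of the 12599 genes did. The limit on mean CPM fixed the fall of NRAD1, RPL7AP75, LINC01781 and ENSG00000286805 in A498. In 786-O it fixed that of LINC01781 and ENSG00000250615. NRAD1 fell in both lines, with −4.23 ± 0.18 (SE, edgeR adjusted p = 1.43e-21) and −1.71 ± 0.10 (SE, edgeR adjusted p = 6.92e-14), and its 6 libraries with IFNγ lay below the 6 without in either. RPAP3-DT, which is transcribed from a start next to RPAP3, rose in 786-O, with 0.96 ± 0.077 (SE, edgeR adjusted p = 7.31e-11), and gave −0.16 ± 0.095 (SE, edgeR adjusted p = 0.129) in A498. It overlaps RAPGEF3 by 1836 exonic bases on the other strand, and RAPGEF3 was 1 of the genes just outside the limit on r. Of the 5 coding genes of which little is described, C4orf19 rose in both lines, with 1.06 ± 0.072 (SE, edgeR adjusted p = 2.86e-15) and 0.57 ± 0.052 (SE, edgeR adjusted p = 7.49e-10). Also in this group, SOWAHD fell in 786-O and CCDC150 in A498, both named after their values were seen.

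None of the 60 genes was in the list of 52 IFNγ response genes or in those of 27 NF-κB targets and 28 type I interferon genes. Lists of this size can hold few of the 12599 genes, so this absence says little about the 60. Of the IFNγ response genes, all 52 rose with IFNγ in A498 and 46 of the 47 tested rose in 786-O. With PD-L1 siRNA in A498, 20 of 26 type I interferon genes and 21 of 24 NF-κB target genes fell without IFNγ, and 18 and 17 fell with it, while none of either list rose by edgeR, also at an unadjusted p under 0.05 with no fold limit (0 in both settings). In 786-O none of 23 type I interferon genes and none of 18 NF-κB targets fell by edgeR in either setting, and 1 type I interferon gene rose without IFNγ. At an unadjusted p under 0.05 with no fold limit, 1 and 5 type I interferon genes were lower in 786-O without and with IFNγ and 10 and 1 were higher, and 3 and 7 NF-κB targets were lower and 4 and 1 higher. The difference between lines was not tested for these lists. With IFNγ itself the kidney lineage list fell in A498, where 9 of 13 genes were lower and none higher by edgeR (1 higher at an unadjusted p under 0.05) with a median log2 fold change of −0.99 against −0.034 over all genes tested, and did not in 786-O, where none of 10 was lower (3 at an unadjusted p under 0.05) and 2 were higher (median 0.11 against −0.0041).

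Promoters of 42 of the 60 genes were matched by symbol to RefSeq (GRCh38.p14, 250 bases before to 50 after the start), and 24 motifs were searched on both strands, 10 of them added after the genes were known. The AP-1 motif TGANTCA was in 6 of the 42 (14.3%, against 6.66% of the 8834 matched genes of the 12599), in CA9, CCDC150, CLDN2, GXYLT2, RPAP3-DT and SLC17A3. CCGGAAG, the ETS motif common in promoters of broadly expressed genes and 1 of the 10 added after the genes were known, was in 1 of 42 (2.38% against 22.6%). The GC box GGGCGG was in 64.3% against 76.1%. Median GC content was 62% against 64.7%. A match says only that these letters are in the window, and with 24 motifs and few genes these shares are a description.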

How the data were processed

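RNA-seq was read for 24 libraries of A498 and 786-O. By the study's methods and processing notes, the authors trimmed reads with Trimmomatic 0.36.6, aligned them to GRCh38 with HISAT2 2.1.0 and deposited 1 table of whole-number counts per gene from featureCounts 1.6.3 (GENCODE annotation, exons, with strand). All its columns were mapped to samples by name. CPM and r were computed from the deposited counts as described above. For the IFNγ tests, genes whose counts summed to 10 or more in some group were scaled by TMM and fitted with edgeR 4.0.16 (R 4.3.3, quasi-likelihood, robust, 1 mean per group, Benjamini-Hochberg), per line over 12 libraries and, for the difference, over 24. The test was checked on simulated counts. DESeq2 1.42.0, RLE scaling, no filter, a replicate block and leaving out each library were alternatives. Gene positions and biotypes came from GENCODE 44 by ID (60 of 60 matched, 43 with the same version). Genes were named by rule: the 20 with the largest smallest r, those in 20 prepared gene lists, and the 3 highest and 3 lowest called IFNγ effects per line. Others were named after their values were seen. The 60 genes, the lists and the tests were chosen with earlier results of these data known. Counting error at a given depth limits low genes: 1 CPM was about 19 to 30 counts. Some genes and promoter motifs are not reported here.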

Additional observations from a re-analysis of the deposited data

Results flagged for a closer look

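The averaged IFNγ effect differed between the lines in 44 of the 60 genes (edgeR adjusted p under 0.05, an interaction term over the 24 libraries), higher in 786-O for 32 and lower for 12. Over all 17999 genes tested in both lines 56.4% passed, 26.5% higher and 30% lower, and line cannot be told apart from sequencer. The genes named by the rule that differed are given here by their log2 difference, 786-O less A498. Among epithelial, transport and metabolic genes CLDN2 differed most, by 5.69 (edgeR adjusted p = 1.48e-33), as it fell in A498 and was not called in 786-O. ACSM2A differed by 2.34, AQP3 by 1.76, SLC17A3 by 1.40, PKHD1 by 1.00 and AMBP by 0.52, all having lower values with IFNγ in both lines and more so in A498. The limit on mean CPM fixed the direction of AQP3 and NRAD1 in A498, of ENSG00000250615 in 786-O and of PKHD1 in both lines. All 8 genes whose fall in A498 it fixed are among the 32. CDH16 differed by 1.19, whereas CA9, lower in 786-O alone, differed by −0.995. For secreted factors and receptors the values were −3.05 for C4A, −2.52 for ANGPTL4, −1.23 for EDN2, 1.11 for TLR5 and 0.92 for TSPAN2. BMF differed by 2.44 (edgeR adjusted p = 1.77e-16) and LHX1 by 0.55. ZBED3 and its opposite-strand partner ENSG00000250615 differed by −1.09 and −1.20. The remaining values were 2.47 for NRAD1, 1.06 for RPAP3-DT, −0.55 for C4orf19 and −0.54 for IL21-AS1. IL21-AS1 passed narrowly (edgeR adjusted p = 0.0347) and was lost without any 1 of 11 of the 24 libraries.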

How the results depend on the processing

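Which genes count among the 60 depended on the settings. Counts of the IFNγ response were not taken over the sets from other pseudocounts or other limits on r, so the 2 cannot be compared in this. A pseudocount of 2 left 34 genes, a limit on r of 0.3 gave 136, a limit of 0.5 left 25 and a mean CPM of at least 5 left 34. TMM or RLE scaling left 44, a pseudocount of 0.1 gave 70, and without 1 library the number was 54 to 63. Without the fold limit, 31 genes were lower and 10 higher with IFNγ in 786-O (23% and 27.1% of all genes tested) and 37 and 10 in A498 (35.1% and 33.8%). Leaving out 1 library gave 31 to 32 lower and 6 to 7 higher in A498, 19 to 21 lower and 4 to 5 higher in 786-O, and 42 to 46 differing between lines. Chosen after seeing the data, counts over the 44 genes kept by TMM scaling were 26 lower and 5 higher in A498 and 17 lower and 1 higher in 786-O, counts over 1 gene of each opposite-strand pair were 31 and 7 of 56 in A498 and 19 and 4 in 786-O, and counts over genes at 1 CPM or more with and without IFNγ were 24 and 7 of 52 in A498 and 17 and 4 of 57 in 786-O. A replicate block left the counts at 32, 7, 20, 4 and 44. Same-numbered libraries deviated together by a mean correlation of 0.014 in both lines, against −0.0070 in A498 and −0.0071 in 786-O for other numbers. Of the 12 libraries of each line, 7 in A498 and 5 in 786-O correlated best with their own number. These values cannot settle whether same-numbered samples share more than a number. No alternative reversed the direction of an effect that was called for a named gene in the main test. Changes of sign in effects that were not called were not counted. Over the named genes 1734 alternative values kept their call, 14 lost it and 16 gained one. The fewest counts of any of the 60 genes in a group were those of NRAD1, at 1, 1 and 2 with Cn siRNA and IFNγ in A498.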
